A study of Saccharomyces cerevisiae with 18 samples.

Results

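The cysteine response of wild type (wt) yeast was followed in 6 of the 18 RNA-seq libraries of the study, 3 of wt cells grown in the rich medium YPD and 3 of wt cells that spent 30 min in the same medium after cysteine had been added to 3 mM (YPD+Cys). These libraries were chosen by their labels, and all genes of the count table that passed a filter on low counts entered the comparison, 5757 in all. All cells were BY4741, a MATa laboratory strain of *Saccharomyces cerevisiae* with the alleles his3Δ1, leu2Δ0, met17Δ0 and ura3Δ0, grown at 30 °C to log phase. The remaining 12 libraries came from *snf2Δ* and *snf5Δ* derivatives, which lack the ATPase and another subunit of the chromatin remodeler Swi-Snf, in the same 2 media. RNA was total RNA depleted of ribosomal RNA. The met17Δ0 allele, shared by wt and mutants, removes homocysteine synthase, so these cells do not build homocysteine from sulfide by that enzyme. The labels number the replicates and do not say whether a number stands for a separate culture, so p-values measure the spread between these libraries, which may be technical.

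Yeast takes up organic sulfur through dedicated permeases and reduces sulfate to sulfide through the enzymes of sulfate assimilation, and the genes for both are turned on by Met4 and its DNA-binding partners Cbf1, Met31 and Met32 when sulfur is short. Cysteine is made from homocysteine by transsulfuration, is the precursor of glutathione, and is a thiol that binds copper, zinc and iron ions. Yeast senses those metals through separate activators. Mac1 turns on copper uptake when copper is low, Aft1 turns on iron uptake when iron is low, and Zap1 turns on zinc uptake when zinc is low.

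Counts in genes lay between 3071047 and 4294986 per wt library. Reads that named no gene made up 16.95% to 20.39% of 5 wt libraries and 37.92% of wt YPD replicate 3, where 28.58% of reads had several places in the genome. No wt library had a count for *LEU2*, *MET17* or *URA3*, while *HIS3*, whose his3Δ1 allele is a partial deletion, had 48 to 89 counts, and *SNF2* and *SNF5* had 546 to 863 and 140 to 212 counts. The markers of MATa cells summed to 1385 to 1840 CPM (counts scaled to the same effective library size in every library) and those of α cells to 24.42 to 30.73 CPM, so the markers match the labelled mating type. Same-numbered wt libraries of the 2 media deviated together from their group means, so each comparison was fitted both without and with the replicate number as a block, and the second fit is called the paired fit.

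At a Benjamini-Hochberg adjusted p under 0.05 in edgeR, 25 genes were called in wt YPD+Cys against wt YPD, 0.434% of those tested. Of these, 12 rose (0.208%) and 13 fell (0.226%). The paired fit called 358 genes (6.22%), 178 higher (3.09%) and 180 lower (3.13%), and all 25 genes were among them. The genes that fell include those of copper uptake, organic sulfur uptake and phosphate uptake, and those that rose include genes of the pentose phosphate pathway, nitrogen metabolism, glycolysis and zinc and iron uptake. Without the block, 14 of the 25 were called in each of the 6 refits that left out 1 wt library, and 11 lost the call in at least 1. Without YPD+Cys replicate 1, 6 genes were higher and 11 lower, and without YPD replicate 2 or 3, 7 were higher. In the paired fit, all 25 were called without each replicate number in turn, while the number of calls was 211, 162 and 284 without replicate 1, 2 and 3. The libraries give relative levels in bulk cultures, so fewer cells that express a gene and less RNA per cell cannot be told apart.

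**Figure D1:**
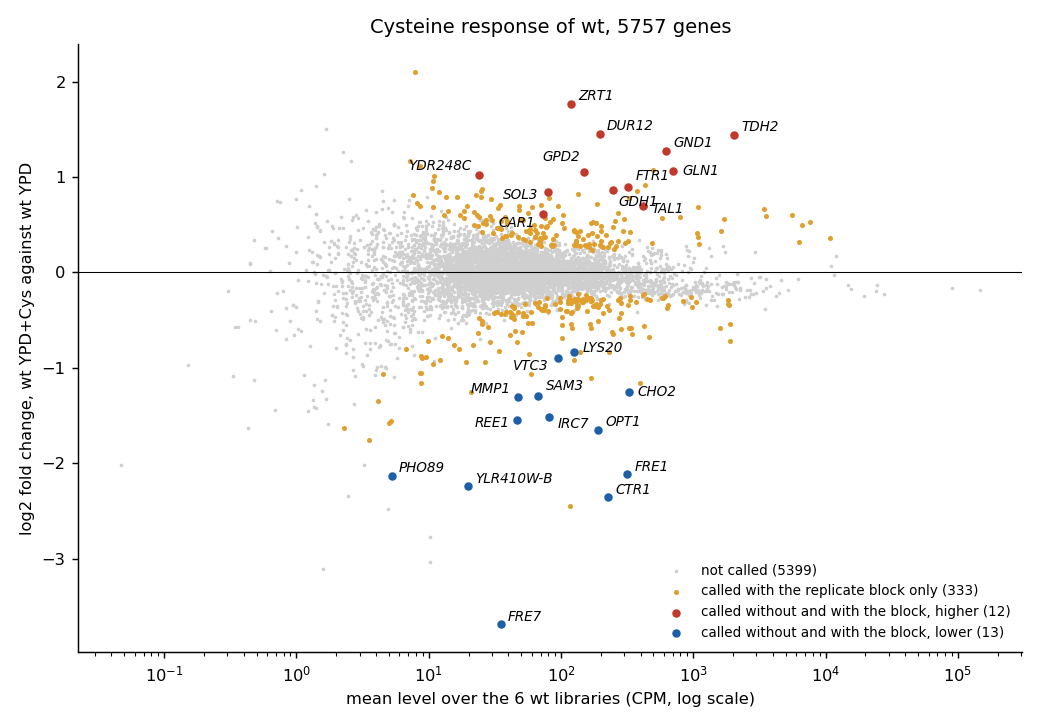
Log2 fold change in wt (YPD+Cys against YPD, vertical axis) against the mean level over the 6 wt libraries (CPM, log scale) for 5757 genes. Red and blue points are the 12 genes called higher and the 13 called lower without and with the replicate block, orange points are the 333 called with the block only, and *FRE7*, at -3.69, lies lowest.

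Some promoters of the genes that fell hold short elements of known activators, and those of copper, sulfur and phosphate genes are printed here. *FRE7*, *REE1* and *CHO2* held none of the elements searched. GATAAG, the GATA element, was searched too and is not printed. It lay in 22.783% of the windows of nuclear protein-coding genes, in 4 of the 13 genes that fell and in 3 of the 12 that rose. *OPT1* and *LYS20* held that element only. Windows were the 500 bases before each start codon in the R64 assembly, whose sequence is that of sacCer3, read on both strands. Each printed stretch is written in the direction of its gene with the element in capitals. The Mac1 element searched was TTTGCTC, or GAGCAAA on the other strand. It was found at least once in 8.602% of the 5987 windows of nuclear protein-coding genes and at least 2 times in 20 of them (0.334%).
CTR1 (chrXVI:785864-785913, + strand): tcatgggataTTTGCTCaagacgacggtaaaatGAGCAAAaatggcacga
FRE1 (chrXII:568271-568314, + strand): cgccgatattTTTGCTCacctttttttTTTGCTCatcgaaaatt
YLR410W-B (chrXII:941059-941131, + strand): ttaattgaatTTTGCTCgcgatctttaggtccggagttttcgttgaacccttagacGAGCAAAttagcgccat
IRC7 (chrVI:264023-264069, + strand): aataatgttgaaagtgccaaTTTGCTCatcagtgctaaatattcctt

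Of the 13 genes that fell, 4 had the element and 3 of them had it more than once, namely *CTR1*, *FRE1* and YLR410W-B. Of the 12 genes that rose, 3 had it. The element bound by Met31 and Met32, searched as ACTGTGG and, on the other strand, as CCACAGT, is shown for 2 permease genes. It lay in 4.009% of all windows and in 4 of the 6 genes for transporters of organic sulfur compounds. Among the 13 genes that fell, 4 had it, the copper genes *CTR1* and *FRE1* as well as *MMP1* and *SAM3*. None of the 12 genes that rose had it.
MMP1 (chrXII:17774-17817, + strand): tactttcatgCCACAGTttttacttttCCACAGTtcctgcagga
SAM3 (chrXVI:22468-22514, + strand): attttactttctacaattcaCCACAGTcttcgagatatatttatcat

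The element CACGTG, read by both the phosphate activator Pho4 and the sulfur factor Cbf1, lay in 6.23% of all windows, in 15 of 23 genes of the phosphate regulon and in 9 of 10 genes of sulfate assimilation. It is shown for *VTC3*, *PHO89* and *PHO84*, whose values are given with the phosphate genes.
VTC3 (chrXVI:517314-517373, - strand): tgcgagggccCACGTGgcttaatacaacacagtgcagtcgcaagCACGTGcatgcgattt
PHO89 (chrII:798820-798865, - strand): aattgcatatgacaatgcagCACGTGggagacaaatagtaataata
PHO84 (chrXIII:26199-26246, - strand): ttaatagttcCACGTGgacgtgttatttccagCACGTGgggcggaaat

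The Zap1 element, searched as ACCTTNAAGGT, lay in 9 windows (0.15%), among them that of the zinc transporter gene *ZRT1*.
ZRT1 (chrVII:20754-20804, + strand): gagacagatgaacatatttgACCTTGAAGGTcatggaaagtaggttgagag

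A match of letters is a description of the window, and binding was not measured in these libraries.

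Of the 6 genes described as Mac1 targets in yeast, 5 fell both without and with the block. The shares called lower over all genes were 0.226% and 3.13%. The median log2 fold change was -1.83 against 0.00 for all genes tested. In each of the 3 same-numbered pairs 6 of 6 were lower, as were 19.9% of all genes. *FRE7* (YOL152W, chromosome XV, 40748 to 42610), a metal reductase made at low copper, had 105.9, 28.2 and 61.7 CPM in YPD and 5.995, 5.28 and 3.77 CPM in YPD+Cys, each given for replicates 1, 2 and 3. All YPD libraries lay far above all YPD+Cys libraries, although the YPD libraries were spread among themselves. *CTR1* (YPR124W, chromosome XVI, 786208 to 787428), the high-affinity copper transporter, had 519.9, 284 and 335 CPM in YPD against 64.6, 117 and 40.6 CPM. *FRE1* (YLR214W, chromosome XII, 568567 to 570627), which reduces copper and iron at the cell surface, had 788, 379 and 370.0 CPM against 144, 141 and 69.4 CPM. In both genes the groups did not overlap, as was so for 4.22% of all genes in the lower direction. The log2 fold changes were -3.69 (standard error, SE, 0.58, adjusted p = 0.00386), -2.36 (0.33, adjusted p = 0.00103) and -2.12 (0.31, adjusted p = 0.00171), or 12.9-fold, 5.13-fold and 4.33-fold.

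*REE1* (chromosome X, 23133 to 23729), which acts on the expression of an enolase gene, had 95.1, 46.1 and 65.8 CPM in YPD and 23.7, 26.4 and 20.7 CPM in YPD+Cys, a log2 fold change of -1.54 (SE 0.29 and adjusted p = 0.0165). That call was lost without wt YPD replicate 1 or 3 or YPD+Cys replicate 1 or 3 (adjusted p from 0.0526 to 0.11). *IRC7* (chromosome VI, 264204 to 265226) encodes an enzyme that splits cysteine and related thiols, and stands on both the Mac1 list and the list of sulfur lyases. It had 135.5, 103 and 119 CPM in YPD and 46.1, 45.5 and 33.3 CPM in YPD+Cys, a log2 fold change of -1.52 (0.18, adjusted p = 3.67e-04), and none of the other 5 genes for sulfur lyases and sulfonate use was called in either fit. *CTR3*, the second high-affinity copper transporter, was the exception among the 6. It had 3.91, 2.28 and 2.96 CPM in YPD and 1.91, 1.76 and 1.34 CPM in YPD+Cys, or 5 to 12 counts per library, with a log2 fold change of -0.85 (SE 0.47 and adjusted p = 0.944, or 0.298 in the paired fit). At this depth a change of that size could not be told from the spread. *MAC1* itself had 21.2, 22.5 and 22.6 CPM in YPD and 33.5, 25.5 and 25.01 CPM in YPD+Cys and was not called (log2 fold change 0.34, adjusted p = 0.748, or 0.181 in the paired fit).

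Among the genes called without the block, the third largest drop was that of YLR410W-B (chromosome XII, 941483 to 946796), the Gag-Pol gene of a Ty2 retrotransposon. It had 34.9, 26.8 and 36.2 CPM in YPD and 5.72, 6.75 and 8.07 CPM in YPD+Cys, a log2 fold change of -2.24 (SE 0.31 and adjusted p = 9.98e-04, or 8.79e-06 in the paired fit). In the R64 annotation this Ty2 element runs from 941192 to 947150, 5959 bases, and *CTR3* begins 102 bases after it, at 947253. Both TTTGCTC elements printed above for YLR410W-B lie before the Ty2 element, from 941069 to 941121, so that 70 bases part them from the retrotransposon and 6131 bases part them from *CTR3*. In the annotated genome the elements that face *CTR3* therefore stand upstream of the Ty2 genes. Ty2 copies are nearly identical, so the count table holds only reads that were unique to this copy. How reads were split between copies, or between YLR410W-B and the shorter YLR410W-A inside it, is uncertain. In RSEM, which shares out reads with several places, the mean was 22.9 TPM in wt YPD and 8.85 in wt YPD+Cys. TPM are scaled by gene length and to a fixed total, and this relative drop was smaller. Whether the drop is transcription that starts at the copper elements was not tested.

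*CUP1-1* and *CUP1-2* encode the copper metallothionein in identical copies on chromosome VIII and had 0 counts in the STAR table in all libraries, because a read that fits both copies is not counted there. RSEM, which shares such reads out, gave each copy 60, 84 and 82 expected counts in wt YPD and 164, 180 and 386 in wt YPD+Cys. The groups did not overlap, and every replicate was higher with cysteine. In edgeR on the expected counts the log2 fold change was 1.44 (standard error 0.35, 2.71-fold), which did not pass the test over all genes (adjusted p = 0.105), and with the replicate block 1.39 (0.13, adjusted p = 1.24e-05). These genes were singled out after their values were seen. Of 9 tested genes for copper binding and delivery, 1 was called, and in the paired fit only, where 6.22% of all genes were called. This was *CCC2*, the copper ATPase that loads the iron oxidase Fet3 and a gene of the Aft1 list too, with a log2 fold change of 0.45 and an adjusted p of 0.00752, which became 0.0698 without replicate 1.

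**Figure D2:**
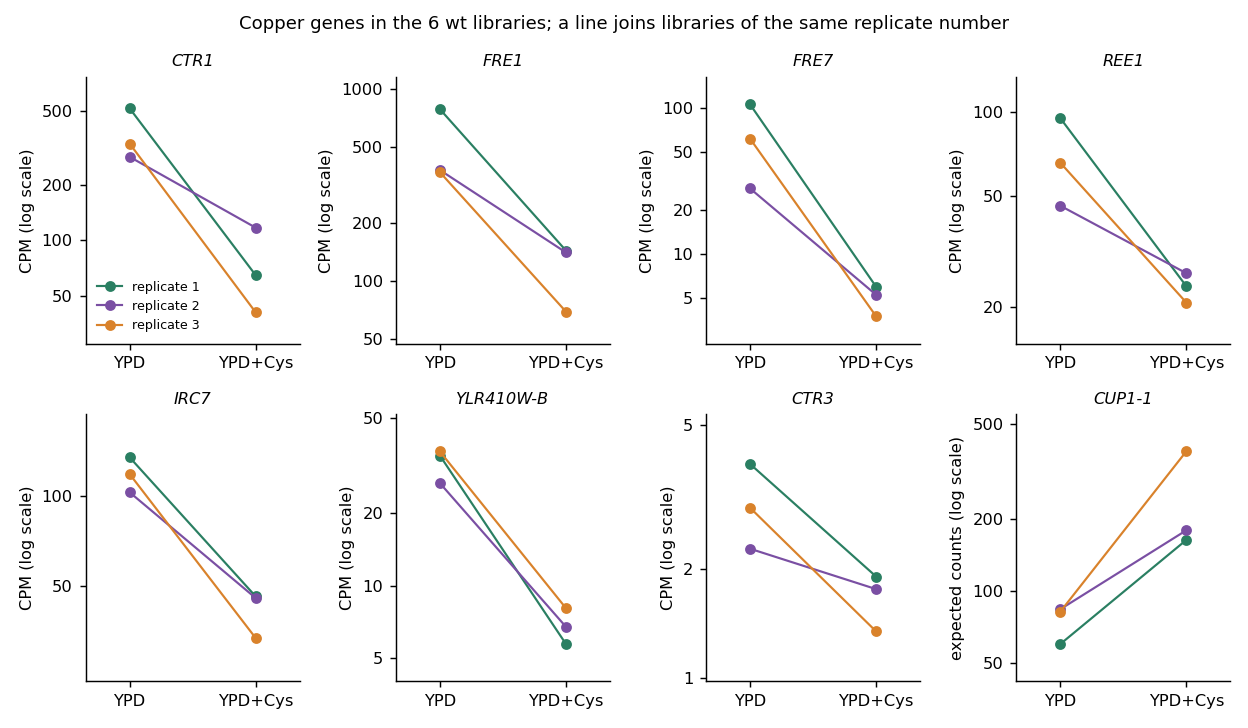
Levels of 7 copper-related genes in the 6 wt libraries (CPM, log scale) and of *CUP1-1* (expected counts, log scale), with a line joining libraries of the same replicate number. The first 7 genes are lower with cysteine in all 3 pairs and *CUP1-1*, from 60 to 84 in YPD and from 164 to 386 in YPD+Cys, is higher in all 3.

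Of 6 genes for permeases of organic sulfur compounds, 3 fell without the block and 4 with it, with a median log2 fold change of -1.20. The shares called lower over all genes were 0.226% and 3.13%. Without replicate 1, the paired fit called 3 and its median went from -1.23 to -0.79. *OPT1*, a transporter of glutathione and oligopeptides, had 311, 272 and 288 CPM in YPD and 71.7, 96.5 and 109.7 CPM in YPD+Cys, 3.14-fold lower (log2 fold change -1.65, standard error 0.22, adjusted p = 9.98e-04). *MMP1*, the permease for S-methylmethionine, had 75.2, 66.0 and 59.1 CPM against 19.4, 27.6 and 34.1 CPM (-1.31, adjusted p = 0.00657). Neither gene's groups overlapped, as for 4.22% of all genes in the lower direction. For both the deepest drop was in replicate 1. *SAM3*, the permease for S-adenosylmethionine (SAM), had 108, 91.9 and 86.9 CPM against 21.0, 48.4 and 47.9 CPM (-1.29, adjusted p = 0.0089, or 0.0508 without wt YPD replicate 1). *MUP1*, the high-affinity methionine permease, had 261, 226 and 199.6 CPM against 57.0, 129.9 and 131.5 CPM, and fell in the paired fit only (-1.15, adjusted p = 0.00632, or 0.129 without replicate 1). *YCT1*, a cysteine transporter, overlapped between the media, with 17.9, 19.4 and 21.4 CPM in YPD and 22.3, 25.5 and 20.2 CPM in YPD+Cys (0.21, adjusted p = 1.00, or 0.457 in the paired fit).

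The use of SAM and the path from homocysteine to glutathione showed smaller drops that passed the test only in the paired fit, with 1 exception. The exception was *CHO2*, which uses SAM to methylate phosphatidylethanolamine on the way to phosphatidylcholine. It had 493, 463 and 417 CPM in YPD and 229, 173 and 174.5 CPM in YPD+Cys (-1.25, standard error 0.13, adjusted p = 1.88e-04), and was the single call among 22 genes of phospholipid synthesis in either fit. *OPI3*, which carries out the methylations that follow, had 38.1, 37.3 and 22.6 CPM against 43.6, 41.4 and 37.1 CPM and was not called (0.31, adjusted p = 0.993, or 0.168 in the paired fit). Of 8 genes of the SAM cycle, transsulfuration and glutathione synthesis, none was called without the block and 5 fell with it, with a median of -0.49. In the paired fit 3.13% of all genes were called lower. *SAM1*, a SAM synthetase, had 498, 423 and 721 CPM in YPD and 94.5, 169.5 and 469 CPM in YPD+Cys. Its groups overlapped, while every replicate was lower with cysteine, which is where the fits part (log2 fold change -1.16, adjusted p = 0.665 without the block and -1.38, adjusted p = 9.82e-05 with it). *SAM2*, its near-identical paralog, had a paired log2 fold change of -0.89 (adjusted p = 0.0119, or 0.16 without replicate 1), and reads may be split between both genes.

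In transsulfuration, *CYS4*, the cystathionine beta-synthase, had 583, 479.9 and 654 CPM in YPD and 319, 305 and 451 CPM in YPD+Cys (paired log2 fold change -0.69, adjusted p = 1.01e-05). *CYS3*, the cystathionine gamma-lyase, had 330.0, 228 and 333 CPM against 133, 133 and 235 CPM (paired -0.86, adjusted p = 5.09e-04). Both were called without each replicate number in turn. *GSH1*, the first enzyme of glutathione synthesis, had a paired log2 fold change of -0.31 (adjusted p = 0.0344), and without any 1 of the replicate numbers it was not called (0.057 to 0.309). Without replicate 1, 2 or 3, the paired fit called 3, 4 and 4 of the 8 genes lower.

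The 11 genes of homocysteine and methionine synthesis moved in both directions, with a median of -0.08. None was called without the block, and the paired fit called 2 higher and 3 lower. That fit called 3.09% of all genes higher and 3.13% lower. *MET6*, the methionine synthase, had 348, 405 and 500.2 CPM in YPD and 117, 211 and 470.0 CPM in YPD+Cys. It was lower by far in replicates 1 and 2 and nearly level in replicate 3, and its paired call (-0.84, adjusted p = 0.00862) was lost without replicate 1 or 2 (0.0757 to 0.166). *MHT1* and *SAM4*, which make methionine from homocysteine and a methyl donor, had paired log2 fold changes of -0.88 (adjusted p = 0.0216, lost without each replicate at 0.0803 to 0.123) and -0.30 (adjusted p = 0.0098, or 0.111 without replicate 1). *MET13*, a methylenetetrahydrofolate reductase, was higher in the paired fit (0.65, adjusted p = 0.00403, or 0.0705 without replicate 3), as was *HOM2* of the aspartate branch (0.34, adjusted p = 0.0237, lost without each replicate at 0.0625 to 0.123). *MXR1*, which repairs oxidized methionine, had 31.6, 27.3 and 29.2 CPM against 7.90, 15.8 and 13.2 CPM, a log2 fold change of -1.26 that just missed the threshold without the block (adjusted p = 0.0626) and passed in the paired fit (1.81e-04).

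No gene of sulfate assimilation passed the test in wt without the block (10 tested, with 0.434% of all genes called there), and 2 were called higher with it. The paired fit called 3.09% of all genes higher. The median log2 fold change was 0.08. *MET5*, the beta subunit of sulfite reductase, had 101.6, 100.2 and 97.6 CPM in YPD and 92.1, 115 and 86.3 CPM in YPD+Cys, and the groups overlapped (log2 fold change -0.03, standard error 0.21, adjusted p = 1.00). *MET14*, the adenylylsulfate kinase, had 22.1, 24.8 and 20.7 CPM against 19.6, 22.6 and 18.6 CPM (-0.16, standard error 0.25). *MET16*, the phosphoadenylylsulfate reductase, had 7.49, 7.69 and 10.3 CPM against 7.90, 9.68 and 6.18 CPM (-0.10, standard error 0.28). With standard errors of this size, even a 2-fold change in these genes could go uncalled without the block. *MXR1*, at -1.26 with a standard error of 0.28, was not called there. *SUL1*, a sulfate permease, had 2.61, 2.85 and 3.33 CPM in YPD and 13.6, 21.1 and 3.50 CPM in YPD+Cys. It was higher in replicates 1 and 2 and nearly level in replicate 3, with a paired log2 fold change of 2.16 (SE 0.41 and adjusted p = 0.00234), which was not called without the block (adjusted p = 0.235) or without replicate 2 (0.153). *SUL2*, the other sulfate permease, had 18.9, 23.1 and 14.1 CPM against 20.7, 35.2 and 16.9 CPM and was not called (0.36, adjusted p = 1.00, or 0.449 in the paired fit). *MET8*, of siroheme synthesis, was the other paired call (0.81, adjusted p = 0.0388, lost without replicate 1 or 2 at 0.152 to 0.283). Among the 10 genes of the Met4 complex and its ubiquitin ligase none was called in either fit, and the median was -0.01.

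**Figure D3:**
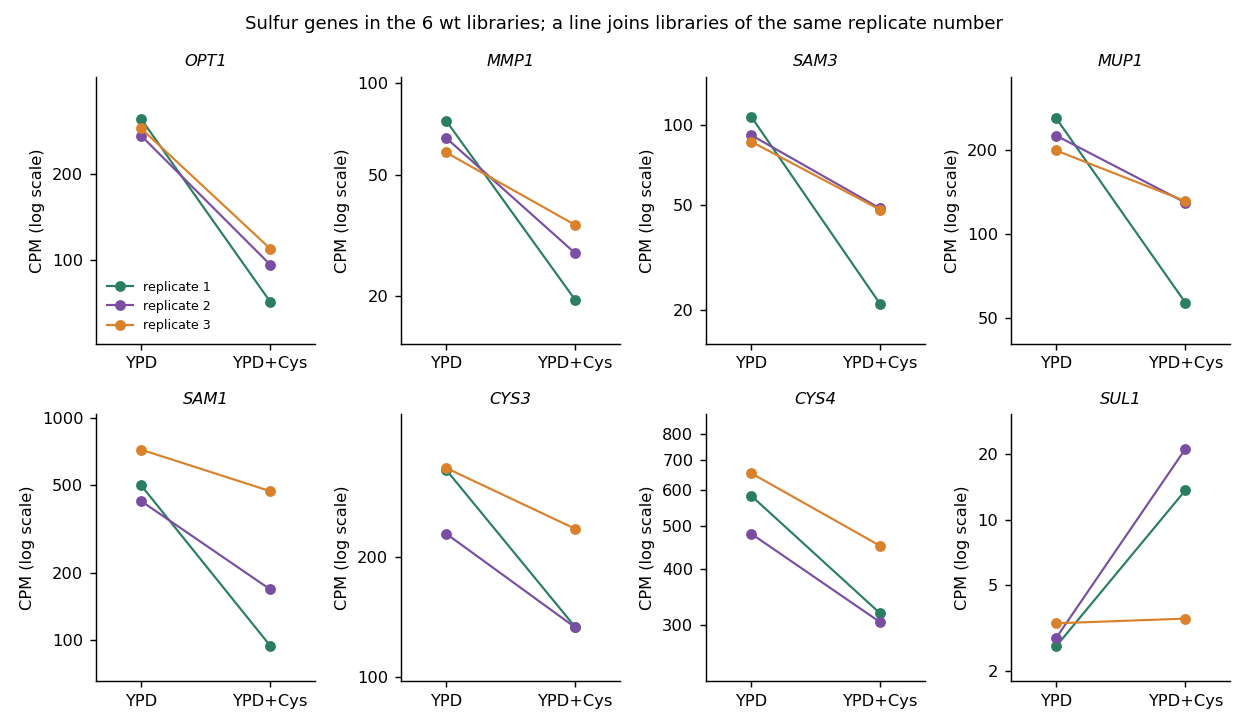
Levels of 8 sulfur genes in the 6 wt libraries (CPM, log scale), with a line joining libraries of the same replicate number. *OPT1*, *MMP1*, *SAM3*, *MUP1* and *CYS4* do not overlap between the media, *SAM1* and *CYS3* overlap but are lower in all 3 pairs, and *SUL1* is higher in replicates 1 and 2 and nearly level in replicate 3.

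Some genes for phosphate uptake and polyphosphate storage fell. In yeast they are turned on by Pho4 when phosphate is short. Of 22 tested genes of the phosphate regulon, 2 fell without the block and 9 with it, none rose, and 15 were lower in all 3 pairs. Over all genes, 0.226% and 3.13% were called lower without and with the block, and 19.9% were lower in all 3 pairs. The median was -0.32. *VTC3*, a subunit of the complex that makes polyphosphate at the vacuole, had 144, 109 and 117 CPM in YPD and 69.5, 73.3 and 56.5 CPM in YPD+Cys (log2 fold change -0.89, standard error 0.13, adjusted p = 0.00196). *VTC4*, the catalytic subunit of that complex, had 158, 119.6 and 156 CPM against 101.1, 86.2 and 102.7 CPM, a log2 fold change of -0.58 with an adjusted p of 0.0501 without the block and 1.67e-05 with it. Both were lower in every YPD+Cys library than in any YPD library, as were 4.22% of all genes.

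*PHO84*, the high-affinity phosphate transporter, had the largest change of the list, and its libraries were also far apart within a medium. It had 317, 121 and 155 CPM in YPD and 71.1, 32.6 and 5.38 CPM in YPD+Cys. The log2 fold change was -2.44 (standard error 0.61), not called without the block (adjusted p = 0.145), and -2.54 with it (0.23, adjusted p = 3.5e-07). *PHO89* (chromosome II, 796798 to 798522), a sodium and phosphate cotransporter, had 8.47, 10.5 and 6.65 CPM against 2.18, 1.76 and 1.88 CPM (-2.13, standard error 0.39, adjusted p = 0.0158). Without the block its call was lost without wt YPD replicate 2 or any 1 YPD+Cys library (0.0683 to 0.0997). The secreted acid phosphatase gene *PHO5* had a paired log2 fold change of -0.63 (adjusted p = 0.00765, lost without replicate 1 or 3 at 0.0549 to 0.0612), and *PHO3*, a phosphatase that responds to thiamine, one of -0.57 (adjusted p = 2.83e-04). Without replicate 1, 2 or 3, the paired fit called 4, 8 and 5 of the 22 genes lower.

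Of 13 genes of the pentose phosphate pathway, the main source of NADPH in the cytosol, 3 rose in both fits and 10 were called in neither, with a median of 0.23. Over all genes, 0.208% rose without the block and 3.09% with it. *GND1*, the 6-phosphogluconate dehydrogenase, which makes NADPH, had 434.5, 301 and 360.1 CPM in YPD and 1047, 703 and 896 CPM in YPD+Cys (log2 fold change 1.27, standard error 0.17, adjusted p = 9.98e-04). *SOL3*, the 6-phosphogluconolactonase that acts before it, had 64.8, 51.2 and 54.0 CPM against 116, 88.6 and 99.8 CPM (0.84, adjusted p = 0.0243). *TAL1*, the transaldolase, had 357, 274.7 and 322 CPM against 541, 468 and 533 CPM (0.69, adjusted p = 0.0165). The groups of each gene did not overlap, as for 5.23% of all genes in the higher direction. Without the block, *SOL3* and *TAL1* lost the call without wt YPD replicate 2 or 3 or YPD+Cys replicate 1 or 3 (0.0693 to 0.164 and 0.0645 to 0.0924). YDR248C, which resembles bacterial gluconokinases, rose as well, with 17.9, 15.4 and 14.1 CPM against 41.4, 28.2 and 26.4 CPM (1.02, adjusted p = 0.0234, lost without wt YPD replicate 2 or 3 or YPD+Cys replicate 1 at 0.113 to 0.165). *TKL1*, the transketolase, and *RKI1*, the ribose-5-phosphate isomerase, had paired log2 fold changes of 0.24 and -0.32 and were not called (adjusted p = 0.0605 and 0.0763).

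In glycolysis, *TDH2*, a glyceraldehyde-3-phosphate dehydrogenase, was the single call without the block among 21 genes, and the paired fit called 15, all higher. That fit called 3.09% of all genes higher. *TDH2* had 1234, 858 and 1206 CPM in YPD and 3244, 2313 and 3391 CPM in YPD+Cys, a 2.71-fold rise (log2 fold change 1.44, standard error 0.16, adjusted p = 2.86e-04). Its paralogs *TDH1* and *TDH3* had paired log2 fold changes of 0.91 (adjusted p = 1.62e-06) and 0.36 (adjusted p = 0.045, lost without replicate 2 or 3 at 0.178 to 0.225). The 3 genes are similar in sequence, so reads may be split between them. Of the 21 genes, 17 were higher in all 3 pairs, 81%, against 19.2% of all genes, and the median was 0.43. Examples from the paired fit are *PGK1*, the phosphoglycerate kinase (0.67, adjusted p = 9.82e-05), *GPM1*, the phosphoglycerate mutase (0.59, adjusted p = 3.25e-04), *TPI1*, the triose phosphate isomerase (0.56, adjusted p = 4.69e-04), and *ADH1*, the main alcohol dehydrogenase of fermentation (0.61, adjusted p = 3.96e-04). The paired count was 14, 10 and 13 without replicate 1, 2 and 3, and limma on TPM with the block called 1 of the 21.

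In glycerol synthesis, which reoxidizes NADH, *GPD2* rose without the block. *GPD2*, a glycerol-3-phosphate dehydrogenase, had 102.0, 85.1 and 102.4 CPM in YPD and 217, 179.8 and 203 CPM in YPD+Cys (1.05, standard error 0.14, adjusted p = 9.21e-04). The phosphatase genes *GPP1* and *GPP2* had paired log2 fold changes of 0.58 (adjusted p = 1.1e-04) and 0.68 (adjusted p = 1.81e-04), and *GPD1* one of 0.41 (adjusted p = 0.00601, lost without replicate 1 or 2 at 0.0699 to 0.102). *NDE1*, a mitochondrial dehydrogenase for cytosolic NADH, was lower in the paired fit, with 323, 368 and 475 CPM in YPD and 236, 265.5 and 279 CPM in YPD+Cys (-0.57, adjusted p = 4.34e-04).

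Among the 12 genes that rose, 4 act in ammonium assimilation or in the use of urea and arginine, a grouping made from the calls and not from a list. *GLN1*, the glutamine synthetase, had 469, 502 and 405.5 CPM in YPD and 1002, 823 and 1045 CPM in YPD+Cys (1.06, standard error 0.15, adjusted p = 0.00139). *GDH1*, which makes glutamate from ammonium with NADPH, had 172, 146 and 205.5 CPM against 327, 247 and 381 CPM (0.87, adjusted p = 0.0298). *DUR12* (*DUR1,2*), the urea amidolyase that releases ammonium from urea, had 124, 103 and 88.7 CPM against 383, 239 and 239.9 CPM (1.45, standard error 0.17, adjusted p = 3.91e-04), and *CAR1*, the arginase that makes urea, had 57.6, 60.6 and 53.6 CPM against 91.0, 91.2 and 80.9 CPM (0.61, adjusted p = 0.0089). All 4 genes were higher in each YPD+Cys library than in any YPD library, as were 5.23% of all genes. Without the block, the *GDH1* call was lost without wt YPD replicate 1 or 2 or YPD+Cys replicate 1 or 3 (0.0976 to 0.172) and the *CAR1* call without wt YPD replicate 3 or YPD+Cys replicate 1 (0.0662 to 0.0683).

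Of 19 tested genes under nitrogen catabolite repression, 1 rose without the block, and 3 rose and 1 fell with it. Of all genes, 0.208% rose without the block, and 3.09% rose and 3.13% fell with it. The ammonium permease genes *MEP3* and *MEP1* were 2 of the paired calls, at 0.57 (adjusted p = 6.85e-04) and 0.84 (adjusted p = 0.0224, lost without each replicate at 0.0608 to 0.122). *GDH2*, the NAD-dependent dehydrogenase that releases ammonium from glutamate, was lower (-0.56, adjusted p = 0.0104, lost without replicate 2 or 3 at 0.0757 to 0.196). Its levels in YPD were 120.5, 371.5 and 421 CPM and in YPD+Cys 121, 248 and 214 CPM, so that replicate 1 did not change and replicates 2 and 3 were lower. *PTR2*, the transporter of di- and tripeptides, had 277, 296 and 222 CPM against 468, 485 and 486 CPM. It was called in the paired fit only (0.86, adjusted p = 2.09e-06). Of 19 genes on the list of amino acid permeases, which holds *PTR2* too, 4 rose and 1 fell in the paired fit, with 6.22% of all genes called there. *MUP1* was the gene that fell. *AGP1* (0.56, adjusted p = 6.85e-04), *DIP5* (0.58, adjusted p = 0.00505, or 0.06 without replicate 1) and *GNP1* (0.42, adjusted p = 0.00366, or 0.0517 without replicate 3) were the other 3 that rose.

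Among 55 genes of amino acid synthesis outside sulfur, 2 rose and 1 fell without the block, and 6 were called higher and 3 lower with it. The shares over all genes were 0.208%, 0.226%, 3.09% and 3.13%, in that order. Without replicate 1, 2 or 3, the paired fit called 7, 4 and 4 higher and 1, 3 and 1 lower. *LYS20*, a homocitrate synthase of lysine synthesis, fell, with 170.0, 114 and 194 CPM in YPD and 89.1, 76.3 and 102.7 CPM in YPD+Cys (-0.83, standard error 0.17, adjusted p = 0.0335, lost without wt YPD replicate 1 or 3 or YPD+Cys replicate 1 or 2 at 0.114 to 0.243). *LEU1*, an iron-sulfur enzyme of leucine synthesis, rose in the paired fit, with 310.1, 246 and 404 CPM against 544, 500.4 and 972 CPM (1.04, adjusted p = 4.59e-08), as did *BAT1*, a branched-chain aminotransferase gene (0.59, adjusted p = 5.15e-05). *ARO9*, an aminotransferase of aromatic amino acids, was lower in the paired fit (-1.18, adjusted p = 0.00249).

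Of the genes for uptake of other metals, the zinc transporter gene *ZRT1* and the iron permease gene *FTR1* rose. *ZRT1* (chromosome VII, 20978 to 22108), which serves high-affinity uptake, had the largest log2 fold change of the 12 genes called higher. It had 39.7, 49.0 and 74.3 CPM in YPD and 121, 132 and 301 CPM in YPD+Cys, a 3.41-fold rise (log2 fold change 1.77, standard error 0.31, adjusted p = 0.0089, or 9.51e-10 in the paired fit). Replicate 3 was the highest in both media. The call without the block was lost without wt YPD replicate 1 or 2 (0.0536 to 0.0583). *ZRT2*, the low-affinity zinc transporter, was higher in the paired fit (0.41, adjusted p = 0.00145), and *IZH1* and *IZH2*, membrane protein genes of the zinc regulon, were lower (-0.48, adjusted p = 0.00272, and -0.56, adjusted p = 2.31e-04). The zinc list thus moved in both directions, with a median of 0.13 over 12 genes. The paired fit called 2 of the 12 higher and 2 lower, and 3.09% of all genes higher and 3.13% lower. *ZAP1* was not called (0.25, adjusted p = 0.993, or 0.39 in the paired fit).

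*FTR1*, the permease of the high-affinity iron uptake complex, had 268, 227 and 184 CPM in YPD and 477, 311 and 475 CPM in YPD+Cys (0.90, standard error 0.19, adjusted p = 0.0475). Its call without the block was lost without wt YPD replicate 2 or 3 or YPD+Cys replicate 1 or 3 (0.138 to 0.265). *FET3*, the iron oxidase that works with it, had 1797, 1723 and 1019 CPM against 2083, 1509 and 1893 CPM and was not called (0.27, adjusted p = 1.00, or 0.469 in the paired fit). Of 28 tested genes of the Aft1 iron regulon, 1 rose without the block and 6 were called higher with it, and the median was 0.25. Over all genes, 0.208% and 3.09% were called higher without and with the block. Without replicate 1, 2 or 3, the paired fit called 5, 11 and 6 higher, with medians of 0.23, 0.36 and 0.16. *FRE3* and *ENB1*, of siderophore uptake, had paired log2 fold changes of 0.60 (adjusted p = 0.00712) and 0.53 (adjusted p = 0.00399), and *SMF3*, the vacuolar iron transporter, one of 0.43 (adjusted p = 0.00227). In wt YPD replicate 3 several of these genes were low, with 14.4 CPM for *FRE3* and 100.2 for *ENB1* against 24.5 to 30.6 and 166 to 188 in the other YPD libraries. That library is also the one with more reads at several places, and without it the median of the iron list was 0.08 and none of its genes was called without the block. The part of that library in the iron result was not tested further.

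No stress or cytosolic ribosomal protein gene of the lists was called without the block. Of all genes, 3.09% were called higher and 3.13% lower with the block. Of 38 heat shock and stress genes, 11 were called higher and 1 lower with the block, with a median of 0.26. They include the mitochondrial chaperone gene *HSP78*, with 49.5, 63.8 and 65.1 CPM in YPD and 103.5, 114 and 88.5 CPM in YPD+Cys (paired 0.78, adjusted p = 3.53e-05), *HSP104*, the disaggregase gene (0.58, adjusted p = 2.41e-04), and *YGP1*, a secreted glycoprotein gene (0.71, adjusted p = 6.93e-05). Without replicate 1, 2 or 3 the paired count was 5, 5 and 12 higher. Of 138 cytosolic ribosomal protein genes, 10 were called lower with the block, 7.25% against 3.13% of all genes called lower and 6.22% called in either direction. The other 128 were not called. Without regard to the test, 107 were lower in all 3 pairs (77.5%, against 19.9% of all genes), and the median was -0.19. With library totals in place of TMM, which shifts the median of all genes from 0.00 to 0.07, none of them was called in the paired fit, and without replicate 1, 2 or 3 the count was 1, 0 and 13. The list's median without wt YPD replicate 3 was -0.09.

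In respiration, 7 of 52 genes of the TCA cycle and respiratory chain were called lower and 1 higher with the block, where 3.13% of all genes were called lower. In all 3 pairs 26 were lower, as were 19.9% of all genes, and the median was -0.20. *QCR7* and *COX4*, of respiratory complexes III and IV, had paired log2 fold changes of -0.39 (adjusted p = 0.0112, lost without each replicate at 0.0584 to 0.0747) and -0.45 (adjusted p = 0.033, lost without replicate 2 or 3 at 0.144 to 0.272). The paired count without replicate 1, 2 or 3 was 7, 2 and 1, and with library totals 1. *OLE1*, the fatty acid desaturase, had 1404, 2386 and 3242 CPM in YPD and 551, 1574 and 2144 CPM in YPD+Cys, with overlapping groups and a drop in each pair (paired -0.84, adjusted p = 1.16e-04). The glucose transporter genes *HXT2* (-0.72, adjusted p = 0.0186, or 0.286 without replicate 1) and *HXT7* (-0.74, adjusted p = 6.15e-04) were lower in the paired fit, and reads of *HXT7* may be shared with its near-identical neighbour *HXT6*. No gene of trehalose and glycogen metabolism was called in either fit (16 tested), and of 34 thiol redox genes 2 were called higher and 1 lower with the block, 8.82% against 6.22% of all genes. Without replicate 1, 2 or 3 the higher calls were 0, 0 and 1, and the lower one was *MXR1*.

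**Figure D4:**
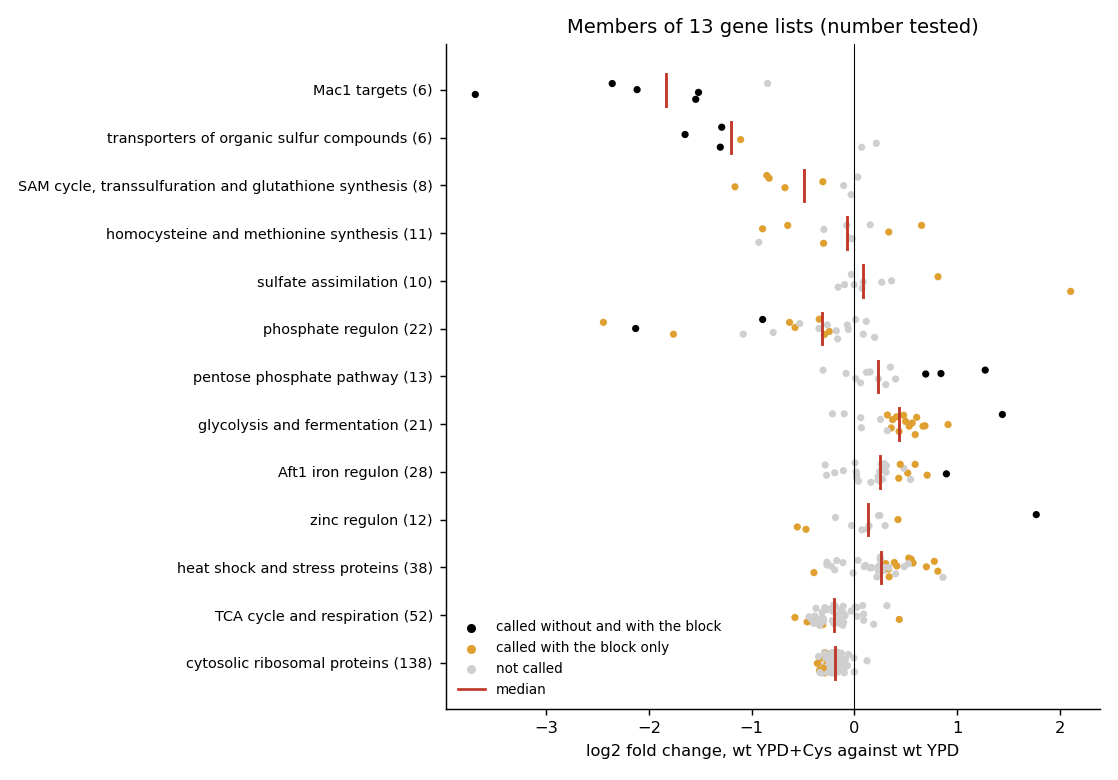
Log2 fold changes (wt YPD+Cys against wt YPD) of the members of 13 gene lists, with the number tested in brackets. Black points were called without and with the block, orange points with the block only, grey points in neither, and a red line marks the median, which is lowest for the Mac1 targets (-1.83) and highest for glycolysis (0.43).

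The mutants gave a comparison for where the wt response differs. No library is shared by the responses of different strains, while both differences from wt rest on the same 6 wt libraries. Of the 25 genes, 23 changed in the same direction in *snf2Δ* and 24 in *snf5Δ*, and 8 and 9 were called there in that direction without the block, where 0.643% and 0.903% of all genes were called. In the paired fit 19 and 17 were called in the same direction, with 5.19% and 3.6% of all genes called, and none in the opposite one. The genes were picked by their call in wt, so a smaller change in the mutants, as 21 and 22 of them had, is a description only. The difference itself was called for none of the 25 in *snf2Δ* and for *MMP1* in *snf5Δ* without the block, where it was called for 0.0869% and 0.33% of all genes. With the block, it was called for 9 and 13 of them, where 0.556% and 1.46% of all genes were called. The wt estimates that picked the 25 genes also enter this difference. These counts, and the differences given below for single genes of the 25, are therefore a description too.

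The genes whose rise differed in the paired fit include *ZRT1* and *DUR12*. *ZRT1* had 20.4 ± 1.31 CPM in *snf2Δ* in YPD and 28.9 ± 7.68 in YPD+Cys, and 21.1 ± 5.69 and 24.2 ± 2.87 in *snf5Δ* (SD, n = 3 each), log2 fold changes of 0.50 and 0.25 beside 1.77 in wt. The difference from wt had an adjusted p of 0.00102 and 9.48e-05 with the block, and 1.00 and 0.501 without it. *DUR12* had log2 fold changes of 0.45 and 0.40 beside 1.45 (adjusted p of the difference 6.05e-05 and 2.11e-05 with the block, 0.297 and 0.119 without it). *VTC3* had log2 fold changes of 0.04 and -0.07 in the mutants, with 72.7 ± 6.50 and 75.0 ± 6.21 CPM in *snf2Δ* and 73.4 ± 8.42 and 70.5 ± 3.96 CPM in *snf5Δ* (SD, n = 3 each). These 4 levels were near the YPD+Cys level of wt, which was 56.5 to 73.3 CPM, and below its YPD level, which was 109 to 144 CPM. The difference in response had an adjusted p of 3.44e-04 and 7.87e-04 with the block and 0.101 and 0.102 without it.

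Among the copper genes, *CTR1* fell in all 3 strains. It was called lower in *snf2Δ*, at -1.48 with an adjusted p of 0.0386, and in *snf5Δ*, at -1.46 with an adjusted p of 0.0335, and the differences from wt, 0.88 and 0.90, were not called (adjusted p = 1.00 each, or 0.397 and 0.278 with the block). *MMP1* fell further in the mutants than in wt, by 2.37 and 3.64 on the log2 scale, from higher YPD levels of 123 ± 14.2 and 131.7 ± 24.3 CPM (SD, n = 3 each). That difference was called in *snf5Δ* without the block (adjusted p = 9.03e-04, or 4.29e-06 with it) and in *snf2Δ* with it only (0.0156). The 10 genes of sulfate assimilation, with a median of 0.08 in wt, had median log2 fold changes of -1.52 in *snf2Δ* and -2.81 in *snf5Δ*, with 7 and 9 of 10 genes called lower without the block, beside 0.591% and 0.834% of all genes called lower there.

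**Figure D5:**
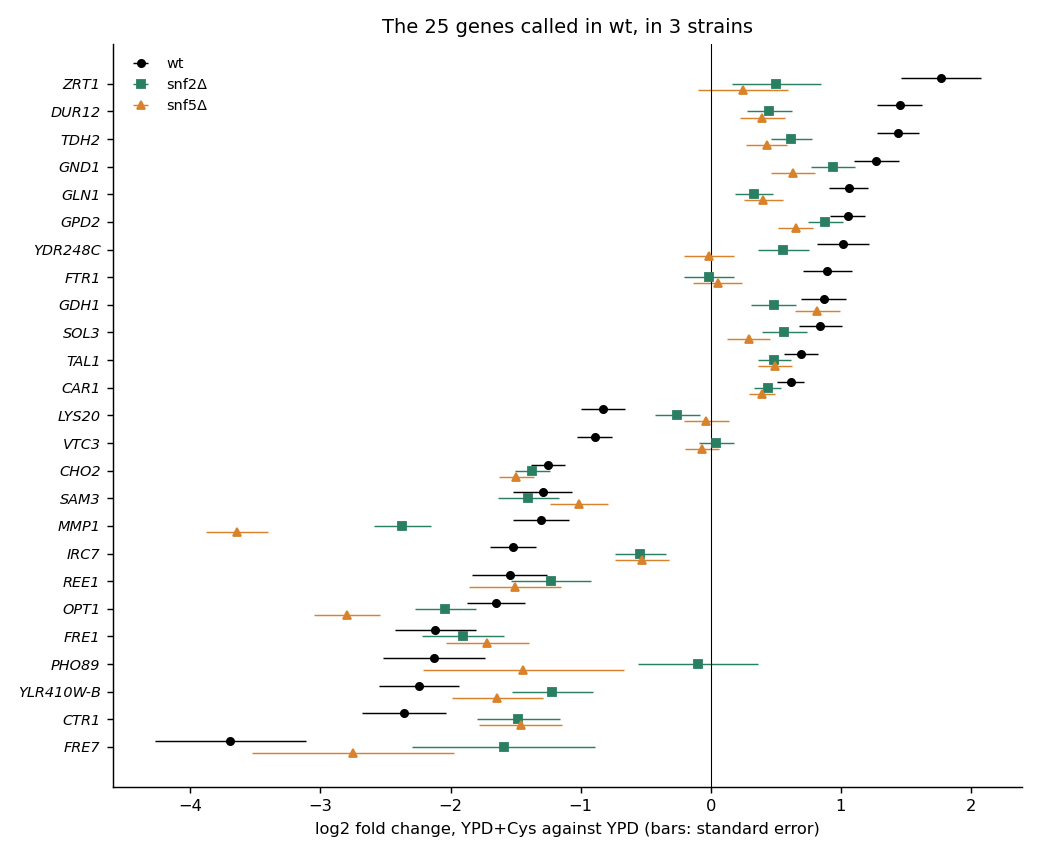
Log2 fold changes (YPD+Cys against YPD, horizontal axis) of the 25 genes called in wt, in wt, *snf2Δ* and *snf5Δ*. Points are estimates of the fit without the block and bars standard errors. *VTC3* lies at -0.89 in wt and near 0 in both mutants, while *MMP1* and *OPT1* lie lower in the mutants than in wt.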

How the data were processed

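RNA was measured in 18 libraries, 3 per group. The authors used bcl2fastq 2.18 for demultiplexing and STAR 2.7.3a for alignment to sacCer3 with Ensembl gene models, and deposited raw counts per gene. The authors also deposited RSEM 1.3.0 expected counts, which share out reads with several places, and TPM, which are scaled by gene length and to a fixed total. The strand setting of the counting is not given in the sources used here, so reads of overlapping or antisense genes cannot be told apart. The 4 lines that name no gene held 14.35% to 78.23% of reads and were left out. Counts in genes ran from 1329986 to 4845830 per library. Of 7127 identifiers, 6047 matched the R64 annotation.

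Counts were filtered with filterByExpr, scaled by TMM and fitted over all 18 libraries with 1 mean per group in edgeR 4.0.16 (R 4.3.3) by its quasi-likelihood test, with 12 residual degrees of freedom. Genes were called at a Benjamini-Hochberg adjusted p under 0.05 over 5757 genes. Across genes, same-numbered wt libraries of the 2 media shared deviations from their group means, with correlations of 0.609, 0.608 and 0.49. The mean for other numbers was -0.284. Deviations cancel out within a group, so positive correlations for same numbers bring negative ones for other numbers, and that mean is not separate evidence. The numbers were taken as pairs on the same-number correlations alone. A fit with a block for each replicate number of a strain (6 residual degrees of freedom) is given beside the other. In simulated counts, for 5635 genes, the fit without the block recovered 82.4% of 2-fold and 100% of 4-fold changes in wt with 0 false calls. The paired fit recovered 90.7% and 100% with 10 false calls. The simulation gave same-numbered libraries a shared deviation, used smaller dispersions than those fitted, and left genes of low level unchanged. It thus assumed the pairing and cannot show whether the paired calls in the real libraries are right.

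The 42 gene lists and the tests were chosen with earlier results of these data known. Genes were named where they ranked among the 15 strongest calls in a direction, or among 10 more in a direction in the paired fit. Both rules asked for a mean of 10 CPM or more in 1 wt group and no overlap between the media. Of the genes picked in the paired fit, tG(GCC)F2, tF(GAA)P1, YKL068W-A, YML131W and *IRC10* are not described. Also named are members of described lists, up to 5 genes per mutant and direction whose response differs from wt, and *MET5*, *MET14* and *MET16*. Alternatives were RLE size factors, library totals, other filters, nuclear protein-coding genes, DESeq2 1.42.0, limma 3.58.1 on log2(TPM + 1) and log2(TPM + 0.1), expected counts rounded to whole numbers, the 6 wt libraries alone, the block, and leaving out libraries. Fits with the block under other scalings, tests and counts were added after the data were seen. CPM are counts scaled to the same effective library size after TMM.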

Additional observations from a re-analysis of the deposited data

Results flagged for a closer look

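Over all genes, edgeR's test of the difference in cysteine response from wt called 5 genes in *snf2Δ* and 19 in *snf5Δ* without the replicate block. Those among the sulfur genes named here make up 15 pairs of gene and mutant. The values are the log2 fold change of the mutant (YPD+Cys against YPD) minus that of wt, and the same 6 wt libraries stand in all of them.

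In *snf2Δ*, the difference was -3.14 for *SUL2* (adjusted p = 0.00202), -2.72 for *MET3*, the ATP sulfurylase gene (adjusted p = 0.00202), -2.43 for *MET14* (adjusted p = 0.00491) and -2.03 for *MET5* (adjusted p = 0.00491). In wt these 4 genes had log2 fold changes of 0.36, 0.27, -0.16 and -0.03 and were not called.

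In *snf5Δ*, the same 4 genes had differences of -4.21, -4.20, -3.52 and -2.97 (adjusted p from 9.38e-06 to 3.96e-05). *SUL1* had the widest gap, -5.98 (adjusted p = 2.57e-04), with 2.10 in wt and -3.87 in *snf5Δ*. *MET16* had -2.51 (adjusted p = 0.00173) and *YCT1* -1.55 (adjusted p = 0.00165), and neither was called in wt. *MUP1* had -2.83 (adjusted p = 0.00757), *MMP1* -2.33 (adjusted p = 9.03e-04), *MHT1* -2.07 (adjusted p = 0.018) and *MET6* -2.56 (adjusted p = 0.0241), and these 4 had a change below 0 in wt too. Groups held 3 libraries each. Refits without 1 library were counted over all genes and were not read for each of these genes. Replicate 3 of *snf5Δ* in YPD had 71.42% of reads at several places and 1329986 counts in genes, the fewest of all libraries.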

How the results depend on the processing

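The replicate block moved the counts most. In wt, 12 genes were higher and 13 lower without it, and 178 and 180 with it, or 173 and 163 when the 6 wt libraries alone were fitted with the block. Those 6 libraries alone without the block gave 1 higher and 5 lower. DESeq2 gave 23 higher, and limma on TPM gave 0 higher with each pseudocount and filter (98 to 119 genes at an unadjusted p under 0.05, and 9 to 10 genes called lower). Leaving out 1 wt library gave 6 to 14 higher and 11 to 15 lower. In the paired fit, leaving out replicate 1, 2 or 3 of wt gave 120, 86 and 158 higher and 91, 76 and 126 lower. Library totals with the block gave 207 higher and 76 lower, 73.1% higher against 49.7% with TMM, RSEM expected counts 132 and 86 (60.6% higher), DESeq2 69 and 50, and limma on log2(TPM + 1) 13 and 22. All 25 genes called without the block were called with RLE size factors, without a filter, among nuclear protein-coding genes, in DESeq2 and in the paired fit. A minimum of 10 counts in every library removed *PHO89* and *FRE7* before the test, as some libraries had fewer counts for them. Library totals lost *LYS20*, *SOL3* and *GDH1*, and expected counts lost YDR248C and *FTR1*. The 3 limma fits without the block lost 16 each, and limma with the block lost *PHO89*, *FTR1*, *TAL1*, *GDH1*, *CAR1* and *GLN1*.

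For the difference of *snf2Δ* from wt, 0 genes were higher and 5 lower without the block. DESeq2 gave 1 and 13, the block 5 and 27, limma 2, 1 and 1 lower, and leaving out the 3 mutant libraries with over 40% of reads at several places 3 lower. With the block and without wt replicate 1, 2 or 3 the counts were 6, 12 and 2 higher and 35, 24 and 18 lower. For *snf5Δ*, 0 genes were higher and 19 lower without the block. DESeq2 gave 1 higher, the block 24 and 60, limma 8, 7 and 7 lower, and the block without wt replicate 1, 2 or 3 gave 22, 20 and 12 higher and 66, 49 and 53 lower. The cause of these shifts was not tested.

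*MET5* and *MET16*, which lie close to 0 in wt, changed sign. MET5 in wt (-0.03) was at 0.0479 with library totals, at 0.0314 and 0.0468 in the paired fit without replicate 1 and 3, and between -0.162 and 0.0522 when 1 wt library was left out (above 0 without YPD+Cys replicate 1, at 0.0232, or 3). MET16 in wt (-0.10) was at 0.0144, 0.0319 and 0.0144 in the limma fits on log2(TPM + 1), log2(TPM + 0.1) and log2(TPM + 1) with no filter, at 0.12 with expected counts, at 0.227 in the paired fit without replicate 3, and between -0.261 and 0.0566 when 1 wt library was left out (above 0 without YPD replicate 3 or YPD+Cys replicate 3). Each group held 3 libraries of at most 4294986 counts in wt, so genes with few counts, such as *CTR3*, *SUL1* and *PHO89*, carry wide errors.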

Other observations

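Some paired calls belong to no gene list, or stand out in theirs. *OPT2*, of the same transporter family as *OPT1*, had 5.54, 6.55 and 4.07 CPM in wt YPD and 12.3, 13.8 and 9.41 CPM in wt YPD+Cys, the opposite direction to *OPT1* (paired log2 fold change 1.13, adjusted p = 0.00584, or 0.0551 without replicate 2). *CMK2*, a calmodulin-dependent protein kinase gene, had 97.4, 74.3 and 122 CPM against 206.5, 134 and 178 CPM (0.82, adjusted p = 2.89e-06). *YEF1*, an NADH kinase gene, had 4.56, 10.2 and 7.02 CPM against 13.1, 18.5 and 11.6 CPM (0.98, adjusted p = 0.0135, lost without replicate 1 or 2 at 0.0737 to 0.112). Another Ty Gag-Pol gene, YBR012W-B, was higher (1.00, adjusted p = 0.0075, lost without replicate 2 or 3 at 0.057 to 0.0781), while YLR410W-B next to *CTR3* was lower. Of the 7 markers of MATa cells, *BAR1* was called higher in the paired fit, and the sum of the 7 stayed between 1385 and 1840 CPM in the wt libraries.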
